A study of Mus musculus with 6 samples.

Results

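Pdgfrb, Rgs5, Vtn, Abcc9 and Anpep, genes of pericytes, and Acta2, Tagln and Myh11, genes of contractile smooth muscle, were followed in the spinal cord of mice whose astrocytes lacked Sox2. These 8 of the 35275 genes in the deposited tables were taken by symbol, from a list drawn up with earlier results of these data known. None of the 8 passed edgeR's test between the groups, which 24.6% of all genes tested passed, and the fitted fold changes of the 8 lay between 0.840 and 1.37. Limma on log2(FPKM + 1) called Acta2 and Tagln, 2 of 8, where it called 24.3% of all genes, 2670 higher and 915 lower. Some partners and relatives of the 8 did pass edgeR's test. Kcnj8, whose channel pore pairs with the Abcc9 protein, rose 1.82-fold (95% interval 1.30 to 2.55). Of the 21 other pericyte genes tested, Kcnj8 among them, 4 rose and 2 fell, where 12.2% and 12.4% of all genes did. The number called in that list was 0 without Ctrl library 4 or Sox2 cKO library 1, but those fits called only 26 and 8 of all genes. The 3 nonmuscle relatives of Myh11, all long genes, fell, but Myh14 did not pass with a correction for gene length.

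Pericytes and vascular smooth muscle cells, together called mural cells, are wrapped around the endothelial tube of small and large vessels. Endothelial cells recruit them with PDGF-B, which acts on the receptor PDGFRB of the mural cell. Smooth muscle cells of arterioles contract through alpha smooth muscle actin and smooth muscle myosin, whereas capillary pericytes hold little of these proteins and support the barrier between blood and nervous tissue, whose outer surface is covered by the endfeet of astrocytes.

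The RNA was poly(A) RNA of whole cord, taken from 3 Sox2 cKO mice (mGfap-Cre:Sox2 fl/fl) and 3 Ctrl mice, all of the C57BL/6 strain. The mouse Gfap promoter drives Cre in astrocytes, so Sox2 was deleted there and not by design in mural cells. The sample labels give the controls as mGfap-Cre:Sox2+/+ mice, the paper as Sox2 fl/fl littermates, and the design text allows either Cre or the floxed allele alone. The age is 90 days in the labels and 80 days in the design text. Libraries 2, 4 and 6 were Ctrl and libraries 1, 3 and 5 were Sox2 cKO, by the numbers of the mice. The labelled replicates could not be matched to these numbers.

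The 6 libraries held 21507911 to 28392184 counts on genes, and the groups overlapped in depth. Comparisons between libraries use CPM, the counts scaled by TMM to the library size. Sox2 itself was at 14.8 to 29.5 CPM in the controls and at 2.69 to 3.16 CPM in the knockouts (log2 fold change -2.86, adjusted p = 0.000956 by edgeR). The number of genes called moved with single libraries: edgeR called 3970 of 16137 genes tested, 8 without Sox2 cKO library 1, 26 without Ctrl library 4 and 6119 without Ctrl library 2. Fold changes also followed gene length over all genes, so members and main calls are also given from a fit in which the length trend of every library was removed. Whole tissue was sequenced, and fewer cells of a type cannot be told apart from less RNA per cell.

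Among the members, levels compared per length, as the deposited FPKM values allow, spanned a wide range in Ctrl spinal cord. Vtn, which encodes the adhesive protein vitronectin, was highest at 30.3 to 52.5 FPKM. Rgs5, an inhibitor of G protein signalling and a common label of brain pericytes, followed at 22.8 to 24.4 FPKM. Both stood apart from the rest of the members, and from each other, in all 3 Ctrl libraries.

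Tagln, the actin-binding protein transgelin, was at 4.18 to 5.14 FPKM. Pdgfrb was at 2.75 to 3.48 FPKM and Acta2, alpha smooth muscle actin, at 2.12 to 2.85 FPKM, and these neighbours overlapped. Abcc9, the sulfonylurea receptor of a potassium channel, was at 1.58 to 1.82 FPKM. The lowest were Myh11, the smooth muscle myosin heavy chain, at 0.880 to 1.42 FPKM, and Anpep, the membrane peptidase CD13, at 0.359 to 0.962 FPKM, which overlapped. Pericyte genes thus stood at both ends of the order, with the contractile genes between them.

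**Figure D1:**
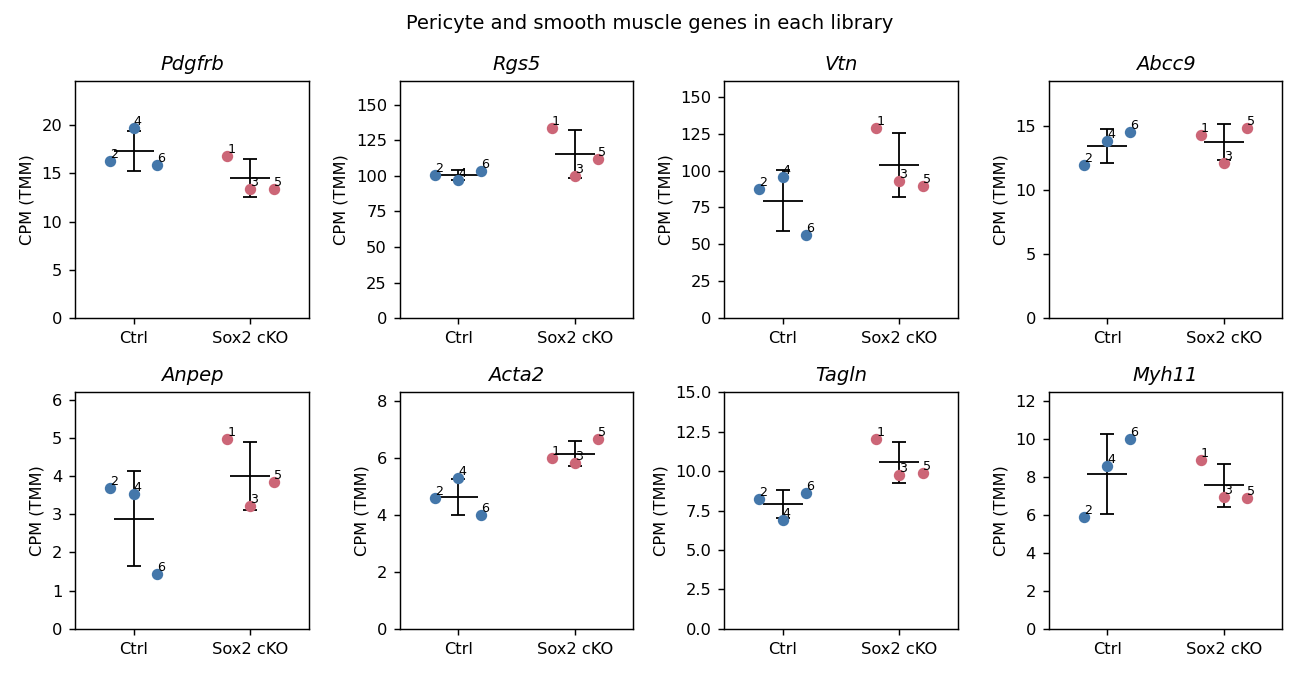
Each panel plots the CPM (TMM-normalized, axis from 0) of a member in the 3 Ctrl libraries (blue) and the 3 Sox2 cKO libraries (red), labelled by library number, with the group mean and SD. The groups overlap for every member except Acta2 and Tagln, whose lowest Sox2 cKO libraries stand at 5.80 and 9.76 CPM, above the highest Ctrl libraries at 5.28 and 8.64 CPM.

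Pdgfrb (ENSMUSG00000024620, chromosome 18 of mm10, 61045150 to 61085061), the receptor through which PDGF-B holds pericytes on vessels, was at 16.3, 19.6 and 15.8 CPM in Ctrl (libraries 2, 4 and 6, in this order throughout). Sox2 cKO libraries 1, 3 and 5 held 16.8, 13.4 and 13.3 CPM. Sox2 cKO library 1 lay inside the Ctrl range and the other 2 lay below it, so the groups overlapped. The means were 17.2 ± 2.07 CPM in Ctrl and 14.5 ± 1.99 CPM in Sox2 cKO (SD, n = 3). This gave a log2 fold change of -0.25 (95% interval -0.54 to 0.04, adjusted p = 0.18 by edgeR). After the length correction it was -0.07 (edgeR, adjusted p = 0.735).

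Rgs5 (ENSMUSG00000026678, chromosome 1, 169655501 to 169695813) was at 100.8, 97.1 and 103.7 CPM in Ctrl and at 133, 100.2 and 112 CPM in Sox2 cKO. The Ctrl libraries lay close together, and Sox2 cKO library 3 lay among them. Rgs5 had means of 101 ± 3.32 CPM in Ctrl and 115 ± 16.8 CPM in Sox2 cKO (SD, n = 3), a fold change of 1.15 (95% interval 0.976 to 1.34, adjusted p = 0.188 by edgeR). With the length correction the 3 Sox2 cKO libraries, at 138, 102 and 114 CPM, all lay above the Ctrl libraries at 99.8, 94.0 and 100.7 CPM. The corrected fold change of Rgs5 was 1.2 (95% interval 1.03 to 1.40, adjusted p = 0.107 by edgeR).

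Vtn (ENSMUSG00000017344, chromosome 11, 78499091 to 78502324) was at 87.3, 95.3 and 56.1 CPM in Ctrl and at 128, 92.7 and 89.5 CPM in Sox2 cKO. The lowest value was that of Ctrl library 6 and the highest that of Sox2 cKO library 1, while the other 4 libraries lay within the same range. Vtn averaged 79.5 ± 20.7 CPM in Ctrl and 104 ± 21.6 CPM in Sox2 cKO (SD, n = 3). Its log2 fold change was 0.38 (95% interval -0.04 to 0.80, adjusted p = 0.166 by edgeR). It was 0.17 after the length correction (edgeR, adjusted p = 0.533). Without Ctrl library 6 the log2 fold change of Vtn was 0.18, and with the length correction in addition it was -0.02.

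Anpep (ENSMUSG00000039062, chromosome 7, 79821803 to 79861059) followed the same library. Its CPM were 3.68, 3.53 and 1.45 in Ctrl and 4.96, 3.21 and 3.85 in Sox2 cKO, from as few as 30 counts in Ctrl library 6. All libraries but this one lay between 3.21 and 4.96 CPM. Its log2 fold change of 0.46 (adjusted p = 0.30 by edgeR) had the widest interval of the members, from -0.24 to 1.15. It was 0.50 with the length correction (edgeR, adjusted p = 0.30) and 0.15 without Ctrl library 6.

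Abcc9 (ENSMUSG00000030249, chromosome 6, 142587862 to 142702315) was at 12.0, 13.8 and 14.5 CPM in Ctrl and at 14.3, 12.1 and 14.8 CPM in Sox2 cKO. The groups covered nearly the same range. Abcc9 had a log2 fold change of 0.03 (95% interval -0.24 to 0.30, adjusted p = 0.878 by edgeR). It is the longest member, at 7538 bases, and the length correction moved it most. Corrected values of Abcc9 were 12.0, 11.9 and 12.7 CPM in Ctrl and 17.0, 13 and 15.9 CPM in Sox2 cKO. These groups no longer overlapped, and the corrected log2 fold change was 0.33 (95% interval 0.06 to 0.59, adjusted p = 0.0920 by edgeR). An antisense gene, 5330439B14Rik, shares 158 of the 8373 exon bases of Abcc9, and whether reads were counted by strand is not stated.

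Of the contractile members, Acta2 (ENSMUSG00000035783, chromosome 19, 34241090 to 34255590) was at 4.58, 5.28 and 4.01 CPM in Ctrl and 5.97, 5.80 and 6.65 CPM in Sox2 cKO. All 3 Sox2 cKO libraries lay above all 3 Ctrl libraries. The means were 4.62 ± 0.638 CPM in Ctrl and 6.14 ± 0.449 CPM in Sox2 cKO (SD, n = 3), and an exact two-sided permutation test gave p = 0.1, the smallest that 3 libraries against 3 allow. Acta2 had a log2 fold change of 0.41 (95% interval 0.05 to 0.76), with an unadjusted p = 0.0283 and an adjusted p = 0.0853 by edgeR. With the length correction it was 0.21 (edgeR, adjusted p = 0.400), and the groups overlapped.

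Serum response factor binds a short element, the CArG box, in the promoters of contractile genes, and these elements are shown because they are the classical control sites of Acta2. An exact CArG box was taken as CC, then 6 bases of A or T, then GG, a pattern that reads as itself on the other strand. No exact CArG box lay in the 250 bases before the start of Acta2 in the RefSeq promoter table (GRCm38.p6), but 2 elements with 1 of the 6 middle bases a G or C did. They are printed in the direction of the gene, with the element in capitals and 10 bases on either side. The first element lies 84 to 75 bases before the start, and its printed window is chr19:34255438-34255467 on the minus strand. The second lies 34 to 25 bases before the start, in the window chr19:34255388-34255417. GENCODE places both in the first exon of an Acta2 transcript.
Acta2, far element: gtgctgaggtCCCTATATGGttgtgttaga
Acta2, near element: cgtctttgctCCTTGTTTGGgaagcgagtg

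Of the 32851 promoters in the table, 8.59% held at least 1 such element, exact or with 1 middle base G or C, 0.670% held 2 or more, and 1.47% held an exact one. The table has entries for 5 members. The windows of Rgs5, Vtn, Abcc9 and Anpep held no such element and no ACAAAG, the core letters of SOX binding sites, searched on both strands and present in 16.5% of promoters. Acta2 held no ACAAAG either. Among 18 other smooth muscle genes with an entry, exact boxes were found for Myl9 and Myl6, which encode light chains of myosin. Whether these elements bear on expression here was not tested. The printed window of Myl9 is chr2:156775293-156775322 on the plus strand and that of Myl6 is chr10:128493040-128493069 on the minus strand, again with the element in capitals.
Myl9: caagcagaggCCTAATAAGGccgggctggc
Myl6: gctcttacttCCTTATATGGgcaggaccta

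Acta2 has paralogs with similar coding sequences, and whether reads were shared between them was not tested. Over the 1131 coding bases of Acta2, Acta1 of skeletal muscle was identical at 85.4% and Actg1 at 81.5%. The longest identical runs were 29 bases for Acta1 and 56 bases for Actg1. The first 60 coding bases of Acta2 and Acta1 in GENCODE M21 are printed with the differences in capitals.
Acta2: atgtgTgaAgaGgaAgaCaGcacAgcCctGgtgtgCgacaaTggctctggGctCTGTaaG
Acta1: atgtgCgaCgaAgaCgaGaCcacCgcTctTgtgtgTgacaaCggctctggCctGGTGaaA
The stretches differ at 17 of 60 positions, so they are less alike than the whole coding sequences. Acta1 was at 4.76, 2.45 and 1.69 CPM in Ctrl and at 8.92, 1.53 and 21.5 CPM in Sox2 cKO. Sox2 cKO library 5, the highest for Acta1, was also the highest for Acta2. Sox2 cKO library 3 was the lowest for Acta1, but for Acta2, at 5.80 CPM, it lay above all Ctrl libraries. Within Ctrl, library 2 was the highest for Acta1 and library 4 for Acta2. The part of Acta1 reads in the values of Acta2 was not tested.

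Tagln (ENSMUSG00000032085, chromosome 9, 45929619 to 45936058) was at 8.21, 6.90 and 8.64 CPM in Ctrl and 12.0, 9.76 and 9.90 CPM in Sox2 cKO. As for Acta2, the groups did not overlap (exact two-sided permutation p = 0.1). Tagln averaged 7.92 ± 0.906 CPM in Ctrl and 10.6 ± 1.28 CPM in Sox2 cKO (SD, n = 3). A log2 fold change of 0.42 (95% interval 0.10 to 0.73) put it the closest of the members to the threshold, with an unadjusted p = 0.0157 and an adjusted p = 0.0581 by edgeR. It was 0.18 with the length correction (edgeR, adjusted p = 0.365). The antisense gene Gm48529 covers 1241 of the 1988 exon bases of Tagln, or 62.4%, and Pcsk7 covers another 108 bases from the opposite strand. Gm48529 was not analysed here. Pcsk7, a proprotein convertase, was at 18.8 to 20.9 CPM in all libraries (log2 fold change -0.04, adjusted p = 0.742 by edgeR).

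Myh11 (ENSMUSG00000018830, chromosome 16, 14194535 to 14291372) did not share this pattern. It was at 5.88, 8.61 and 9.99 CPM in Ctrl and at 8.87, 6.92 and 6.88 CPM in Sox2 cKO, so that the Ctrl libraries enclosed those of Sox2 cKO. Myh11 had a log2 fold change of -0.11 (95% interval -0.55 to 0.33, adjusted p = 0.705 by edgeR), 0.15 with the length correction and 0.06 without Ctrl library 6. The sign of its fold change thus moved between fits.

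**Figure D2:**
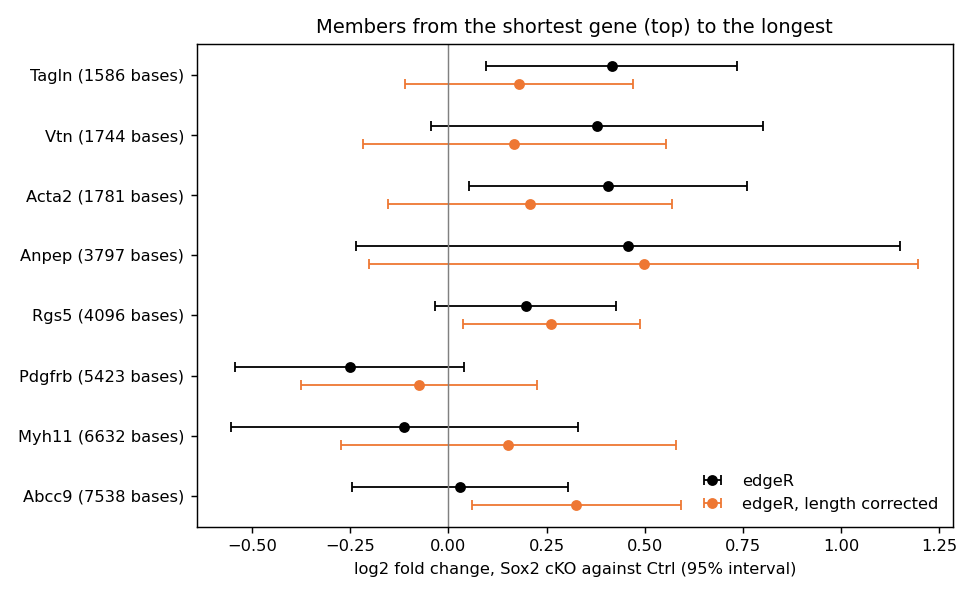
Points give the log2 fold change of each member, Sox2 cKO against Ctrl, with its 95% interval, in the edgeR fit (black) and in the fit with the length correction (orange), from the shortest gene at the top to the longest at the bottom. The correction lowers the 3 shortest genes, Tagln, Vtn and Acta2, and raises the 3 longest, Pdgfrb, Myh11 and Abcc9.

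Taken over the list, 0 of 8 members passed an adjusted p of 0.05 in edgeR, where 24.6% of all genes tested did. At an unadjusted p below 0.05 there were 2, Acta2 and Tagln. DESeq2 called 0 of 8, against 17.7% of all genes, with Vtn and Tagln below 0.05 before adjustment, and edgeR with the length correction called 0 of 8, against 13.1%, with Rgs5 and Abcc9 below it. Acta2 and Tagln were also the only members whose CPM did not overlap between groups, 2 of 8 beside 44.7% of all genes. With the length correction the pair was Rgs5 and Abcc9 instead, both higher, beside 37.4% of all genes in either direction and 18.0% higher. On the FPKM scale Rgs5, Acta2 and Tagln did not overlap, 3 of 8 beside 47.3% of 14756 genes. The call on this pair differed between the fits. Limma on log2(FPKM + 1) called both, with log2 fold changes of 0.38 and 0.44 on that scale (adjusted p = 0.0329 and 0.0323). It called 24.3% of all genes, 2670 of them higher in Sox2 cKO and 915 lower. The median over all genes was 0.09 on that scale. FPKM values are not scaled by TMM, whose factors were 0.943 to 0.994 in Ctrl and 1.01 to 1.06 in Sox2 cKO. With a pseudocount of 0.1 limma called both again, beside 23.8% of all genes, 2614 higher and 896 lower. With upper quartile normalization edgeR called Tagln (log2 fold change 0.46, adjusted p = 0.0494) but not Acta2 (adjusted p = 0.0635). That fit called 24.6% of all genes, 2313 higher and 1652 lower, and its median over all genes was 0.06. In edgeR with TMM the median log2 fold change of the 8 members was 0.29, and 0.19 with the length correction, beside 0.02 and 0.00 for all genes. Log2 fold changes were above 0 for 6 of 8 members and, with the correction, for 7 of 8.

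Gene length orders the members much as it orders all genes. When all tested genes were divided into 5 groups by length, the median log2 fold change was 0.30 in the shortest group, where Tagln lies, and 0.15 in the next, where Vtn and Acta2 lie. It was -0.07 in the fourth, which holds Rgs5 and Anpep, and -0.25 in the longest, which holds Pdgfrb, Abcc9 and Myh11. Pdgfrb lay at the median of its group, and the other 7 members lay above the median of theirs, Anpep by the most. Spearman's rho between length and log2 fold change was -0.48 across all tested genes and -0.74 across the 8 members, which are not independent replicates, and 0.02 across the members after the correction.

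**Figure D3:**
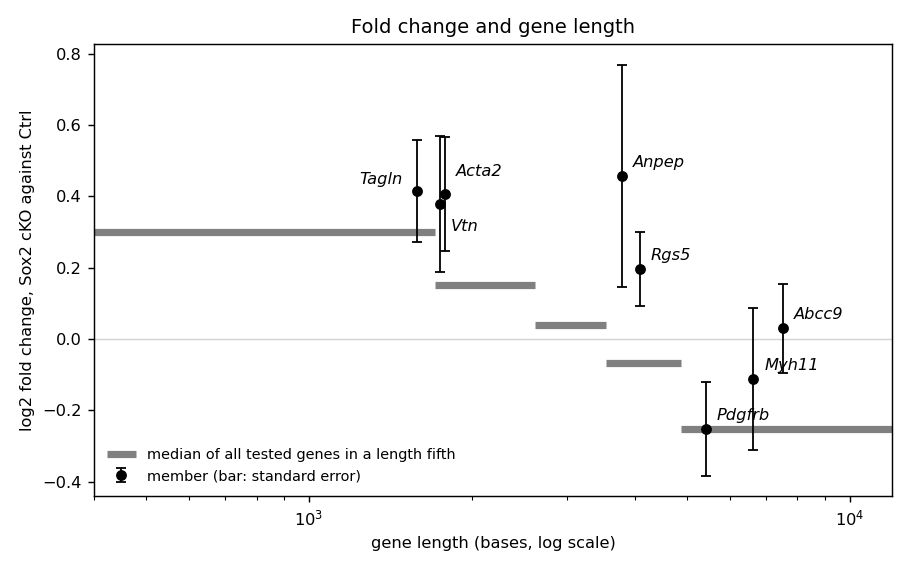
The log2 fold change of each member (points, with standard error) is plotted against gene length on a log axis, and grey lines give the median of all tested genes in each of 5 length groups. The medians step from 0.30 in the shortest group to -0.25 in the longest, and Pdgfrb sits on the lowest line while Abcc9 sits above it.

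Ratios between members within a library do not depend on its depth. These ratios were chosen after the values had been seen. The FPKM ratio of Rgs5 to Pdgfrb was 8.20, 6.55 and 8.67 in Ctrl and 10.5, 9.89 and 11.1 in Sox2 cKO. All 3 Sox2 cKO libraries were above Ctrl, also after the length correction, although neither gene passed the test. The ratios of Tagln to Myh11, of Acta2 to Tagln and of Vtn to Rgs5 overlapped between the groups. The mean log2 CPM of the contractile members minus that of the pericyte members was -1.71 ± 0.30 in Ctrl and -1.65 ± 0.09 in Sox2 cKO (SD, n = 3), and the difference of 0.06 between the groups was smaller than the spread in Ctrl.

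Beyond the 8 members, 21 of 22 other pericyte genes passed the filter on low counts, and 4 rose and 2 fell in edgeR, where 12.2% of all genes rose and 12.4% fell. Their median log2 fold change was 0.36, and 0.13 with the length correction. Kcnj8, which encodes the Kir6.1 pore of the potassium channel that Abcc9 completes, was at 3.32, 2.54 and 3.14 CPM in Ctrl and 6.90, 4.13 and 5.44 CPM in Sox2 cKO. The groups did not overlap, and Kcnj8 had a log2 fold change of 0.87 (edgeR, adjusted p = 0.0215) and 0.73 with the length correction (edgeR, adjusted p = 0.0457). The FPKM ratio of Kcnj8 to Abcc9 was 0.955, 0.631 and 0.744 in Ctrl and 1.66, 1.17 and 1.27 in Sox2 cKO, again with no overlap. It was chosen after the values had been seen and rests on the same Kcnj8 counts, so it adds no separate result. The log2 difference of this ratio between the groups was 0.82, and 0.37 with the length correction, which left the groups apart.

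Heyl, a transcriptional target of Notch signals in mural cells, rose from 9.80 to 13.5 CPM in Ctrl to 16.2 to 17.4 CPM in Sox2 cKO (log2 fold change 0.48, edgeR adjusted p = 0.0274). Nt5e, the CD73 enzyme that makes adenosine, rose as well (log2 fold change 0.57, edgeR adjusted p = 0.0470). It was at 6.01, 7.07 and 4.20 CPM in Ctrl and 7.99, 9.11 and 8.61 CPM in Sox2 cKO. Ifitm1, an interferon-induced membrane protein, rose from 3.36, 3.41 and 2.12 CPM to 8.30, 7.81 and 6.27 CPM (1.32, edgeR adjusted p = 0.0124). Heyl, Nt5e and Ifitm1 were lowest in Ctrl library 6, and Kcnj8 in Ctrl library 4. All of them also passed with the length correction, which called 13.1% of all genes. Notch3, the receptor that marks arterial mural cells, was at 16.5, 25.9 and 31.7 CPM in Ctrl and 15.2, 16.1 and 15.3 CPM in Sox2 cKO, a fall of which the size differed between the Ctrl libraries (log2 fold change -0.67, edgeR adjusted p = 0.0321). Cspg4, the NG2 proteoglycan of pericytes and of oligodendrocyte precursors, fell from 17.4 to 23.9 CPM to 12.6 to 14.1 CPM (log2 fold change -0.67, edgeR adjusted p = 0.0130). Neither Notch3 nor Cspg4 passed with the length correction (edgeR, adjusted p = 0.161 and 0.0610). The number of these other pericyte genes called, 6, was 0 without Ctrl library 4 or Sox2 cKO library 1, 2 without Ctrl library 6, and 3 without Sox2 cKO library 3 or 5. Over all genes, 26 were called without Ctrl library 4, 8 without Sox2 cKO library 1 and 1082 without Ctrl library 6, against 3970 with all libraries. With so few calls over all genes, the counts of 0 say little about pericyte genes.

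Of 22 other smooth muscle genes, 19 passed the filter, and 6 rose and 1 fell, beside 12.2% and 12.4% of all genes. Their median log2 fold change was 0.21, and 0.10 with the length correction. Tpm2, a tropomyosin of contractile filaments, was at 16.1, 12.4 and 13.3 CPM in Ctrl and 21.5, 17.9 and 23.7 CPM in Sox2 cKO (log2 fold change 0.59, edgeR adjusted p = 0.0168), and 0.46 with the length correction (edgeR, adjusted p = 0.0399). The myosin light chains Myl9 and Myl6 rose by 0.51 and 0.58 on the log2 scale (edgeR, adjusted p = 0.0458 and 0.0125) but by values of 0.18 and 0.19 that did not pass after the correction (edgeR, adjusted p = 0.408 and 0.0686). Crip1, a small LIM protein, and Sncg, a synuclein also found in neurons, rose in both fits, by 1.38 and 0.98 on the log2 scale uncorrected (edgeR, adjusted p = 0.0130 and 0.0127). Mustn1 rose without the correction (0.79, edgeR adjusted p = 0.0431). Synpo2, an actin-bundling protein, fell (log2 fold change -0.61, edgeR adjusted p = 0.0382), and with the correction it was at -0.33 (edgeR, adjusted p = 0.198).

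Of the other smooth muscle genes, Cnn1 and Myocd had few counts, 8 to 24 and 0 to 6 a library. Calponin, Cnn1, was at 0.273 to 0.998 CPM over the 6 libraries, and Myocd, the coactivator that drives the contractile program, at 0 to 0.290 CPM, under the filter. Smoothelin, Smtn, was at 2.94 to 5.86 CPM with a log2 fold change of 0.32 (edgeR, adjusted p = 0.295). With the length correction 3 other smooth muscle genes rose, Tpm2, Sncg and Crip1, and 1 fell, Csrp1, a LIM protein that was not called without it (log2 fold change -0.41, edgeR adjusted p = 0.0185, against -0.21 and 0.0651). The corrected fit called 13.1% of all genes, 981 higher and 1128 lower. Per length, Csrp1 was at 269 to 308 FPKM, Myl6 at 299 to 570 FPKM and Sncg at 36.5 to 123 FPKM over the 6 libraries. Acta2 was at 2.12 to 3.78 FPKM. Which cell types gave the reads of these genes was not tested. The uncorrected count of other smooth muscle genes called, 7, was 0 without Ctrl library 4 or Sox2 cKO library 1, and 3 without Ctrl library 6. Those fits called 26, 8 and 1082 of all genes, in this order, against 3970 with all libraries.

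**Figure D4:**
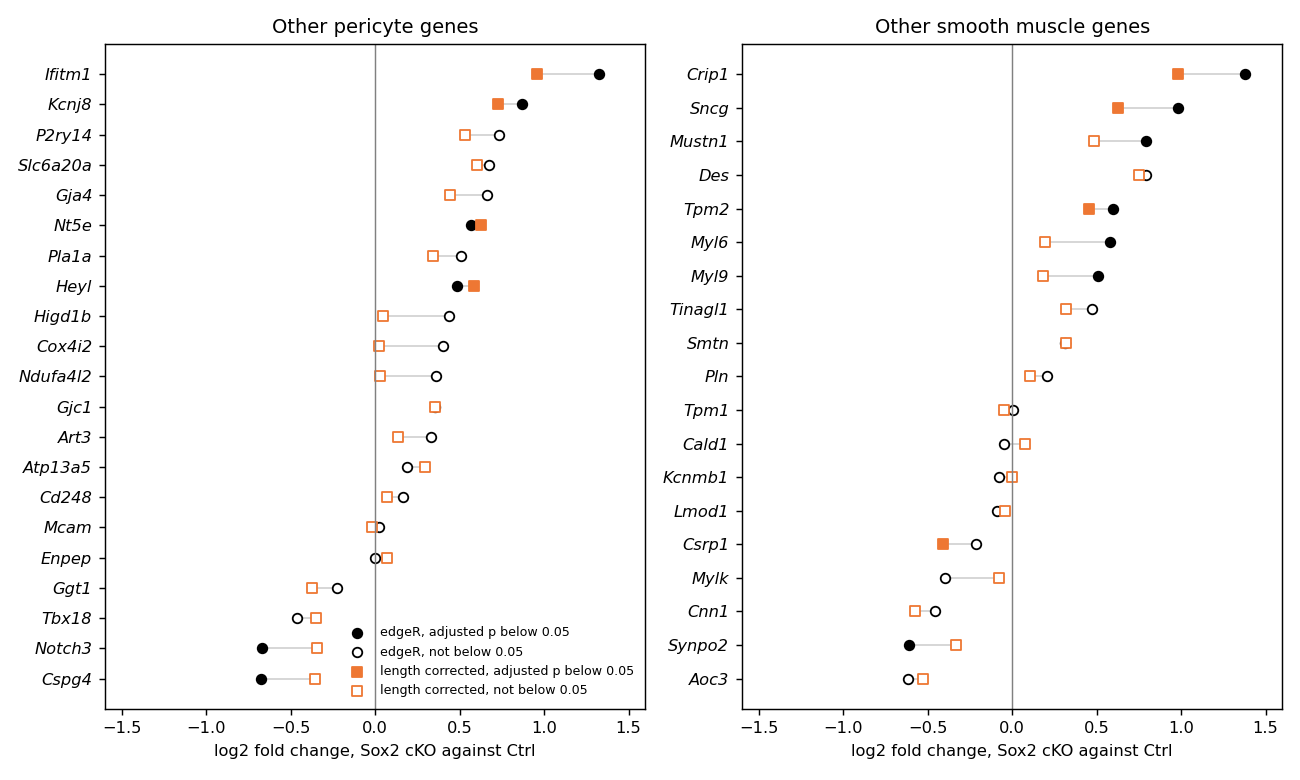
Log2 fold changes of the other pericyte genes (left) and other smooth muscle genes (right) are shown for edgeR (black circles) and edgeR with the length correction (orange squares), filled where the adjusted p was below 0.05. Kcnj8, Ifitm1, Nt5e and Heyl on the left and Crip1, Sncg and Tpm2 on the right are filled in both, while Notch3 and Cspg4 lose their fill with the correction.

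Relatives of the members by protein family moved in both directions. Among the smaller RGS proteins, Rgs2 rose from 29.1 to 38.9 CPM in Ctrl to 43.1 to 48.7 CPM in Sox2 cKO (log2 fold change 0.49, edgeR adjusted p = 0.0176), also with the length correction (edgeR, adjusted p = 0.0259). Rgs4, the neighbour of Rgs5 in the family, had a log2 fold change of 0.05 (edgeR, adjusted p = 0.743). Rgs3 fell by 0.32 on the log2 scale (edgeR, adjusted p = 0.0403), a call lost with the correction (adjusted p = 0.164).

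The nonmuscle myosin heavy chains, which unlike Myh11 are present in most cells, all fell. Myh9 fell from 110 to 165 CPM in Ctrl to 82.3 to 91.7 CPM in Sox2 cKO (log2 fold change -0.74, edgeR adjusted p = 0.0127), and Myh10 and Myh14 fell by 0.58 and 0.62 on the log2 scale (edgeR, adjusted p = 0.0145 and 0.0146). With the length correction Myh9 and Myh10 passed and Myh14 did not (edgeR, adjusted p = 0.0518). Actb, the actin of nonmuscle cells, fell by 0.42 on the log2 scale (edgeR, adjusted p = 0.0301), whereas Actg1 had a log2 fold change of -0.01. Of the transgelin relatives, the neuronal Tagln3 rose by 0.39 (edgeR, adjusted p = 0.0276) without the correction and was at 0.09 with it.

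Beside Abcc9 and Kcnj8, the potassium channel subunits of neurons and endocrine cells were measured. Kcnj11, the Kir6.2 pore, was at 16.5, 18.4 and 18.3 CPM in Ctrl and 11.2, 13.6 and 14 CPM in Sox2 cKO. It fell (log2 fold change -0.45, edgeR adjusted p = 0.0232), opposite to Kcnj8, and also with the length correction. Its partner Abcc8 was at -0.04 (edgeR, adjusted p = 0.810).

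Vitronectin is bound by integrins of the alpha v family. Itgb8, the beta chain that astrocytes use to activate TGF-beta, was at 150, 192 and 209 CPM in Ctrl and 90.9, 122 and 127 CPM in Sox2 cKO (log2 fold change -0.70, edgeR adjusted p = 0.0145). Itgb5, another vitronectin receptor chain, had a log2 fold change of -0.35 (edgeR, adjusted p = 0.0400). Both fell in the corrected fit as well. Itgav, Itgb1 and Itgb3 did not pass, nor did Plaur, the urokinase receptor, which also binds vitronectin. Among membrane peptidases, Lnpep fell (log2 fold change -0.98, edgeR adjusted p = 0.0215), while Enpep, like Anpep an aminopeptidase of pericytes, had a log2 fold change of 0.00 (edgeR, adjusted p = 0.989).

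Of the signals that recruit mural cells, Pdgfb, the ligand of Pdgfrb, was at 8.39, 10.8 and 9.94 CPM in Ctrl and 12.1, 8.56 and 8.92 CPM in Sox2 cKO (log2 fold change 0.02, edgeR adjusted p = 0.946), with the groups overlapping. Pdgfra, the other PDGF receptor and a marker of oligodendrocyte precursors and fibroblasts, fell by 0.37 on the log2 scale (edgeR, adjusted p = 0.0235), but did not pass with the length correction (adjusted p = 0.238). Pdgfa, a ligand of that receptor, had a log2 fold change of -0.32 (edgeR, adjusted p = 0.0706) and fell with the correction (-0.48, adjusted p = 0.0315). Of 18 other recruitment signals, 4 fell and 0 passed in the other direction, beside 12.4% and 12.2% of all genes, with a median of -0.14. Edn1, the peptide endothelin 1, had a log2 fold change of 0.64 with no overlap between the groups, short of the threshold (edgeR, adjusted p = 0.0673). S1pr1, a receptor for sphingosine 1-phosphate that astrocytes also carry, was at 101, 104 and 122 CPM in Ctrl and 80.4, 75.0 and 69.3 CPM in Sox2 cKO (log2 fold change -0.54, edgeR adjusted p = 0.0125). Ednrb, an endothelin receptor of astrocytes, fell by 1.02 on the log2 scale (edgeR, adjusted p = 0.00872), and both passed with the correction. Jag1 and Notch1 fell by 0.49 and 0.56 without the correction (edgeR, adjusted p = 0.0362 and 0.0177) and did not pass with it (adjusted p = 0.142 and 0.277). Among the regulators of contractile genes, Mrtfb fell by 0.68 on the log2 scale (edgeR, adjusted p = 0.0163) and was at -0.34 with the correction (adjusted p = 0.0622), and Srf was at -0.03 (adjusted p = 0.829).

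Markers of neighbouring cell types were summed in each library to set beside the members. Endothelial markers summed to 422, 465 and 491 CPM in Ctrl and to 563, 421 and 468 CPM in Sox2 cKO. In edgeR 2 of 12, Ly6c1 and Emcn, rose, where 12.2% of all genes did. Sox2 cKO library 1 was the highest for endothelial markers and also for Rgs5, Vtn, Anpep and Tagln. The 5 pericyte members summed to 298 CPM in Sox2 cKO library 1, against 192 to 234 CPM in the other libraries. Rgs5 and Vtn, at 133 and 128 CPM, made up most of this sum. Pdgfrb was highest in Ctrl library 4 and Abcc9 in Sox2 cKO library 5. Without Sox2 cKO library 1, the log2 fold change of Rgs5 was 0.08 and that of Tagln 0.31.

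Fibroblast markers summed to 721, 680 and 292 CPM in Ctrl and 719, 581 and 573 CPM in Sox2 cKO, and border macrophage markers to 21.5, 22.3 and 10.9 CPM and to 32.3, 26 and 22.7 CPM. Ctrl library 6, lowest for Vtn and Anpep, was lowest for both, while its red cell markers, at 166 CPM, exceeded the 57.1 to 98.4 CPM of the others. Fibroblasts of the meninges and macrophages can also express Anpep. Of 10 fibroblast markers 1 rose, Mgp, and 1 fell, Pdgfra, and of 6 border macrophage markers Pf4 and Cbr2 rose. No red cell marker passed (0 of 5). Skeletal muscle markers summed to 5.70 to 14.3 CPM in Ctrl and to 35.8, 5.08 and 79.7 CPM in Sox2 cKO, and 1 of 7 tested, Mylpf, rose. Of 7 astrocyte markers, 5 fell, with sums of 7383 to 9566 CPM in Ctrl and 5289 to 5504 CPM in Sox2 cKO. Beside these counts, edgeR called 12.2% of all genes higher and 12.4% lower, and with the length correction 981 of 16137 higher and 1128 lower. With the length correction Gfap and Aqp4 were the astrocyte markers that fell, Ly6c1 and Emcn still rose, and Mgp, Pdgfra, Pf4, Cbr2 and Mylpf did not pass. The part of these cell types in the members' values was not tested.

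**Figure D5:**
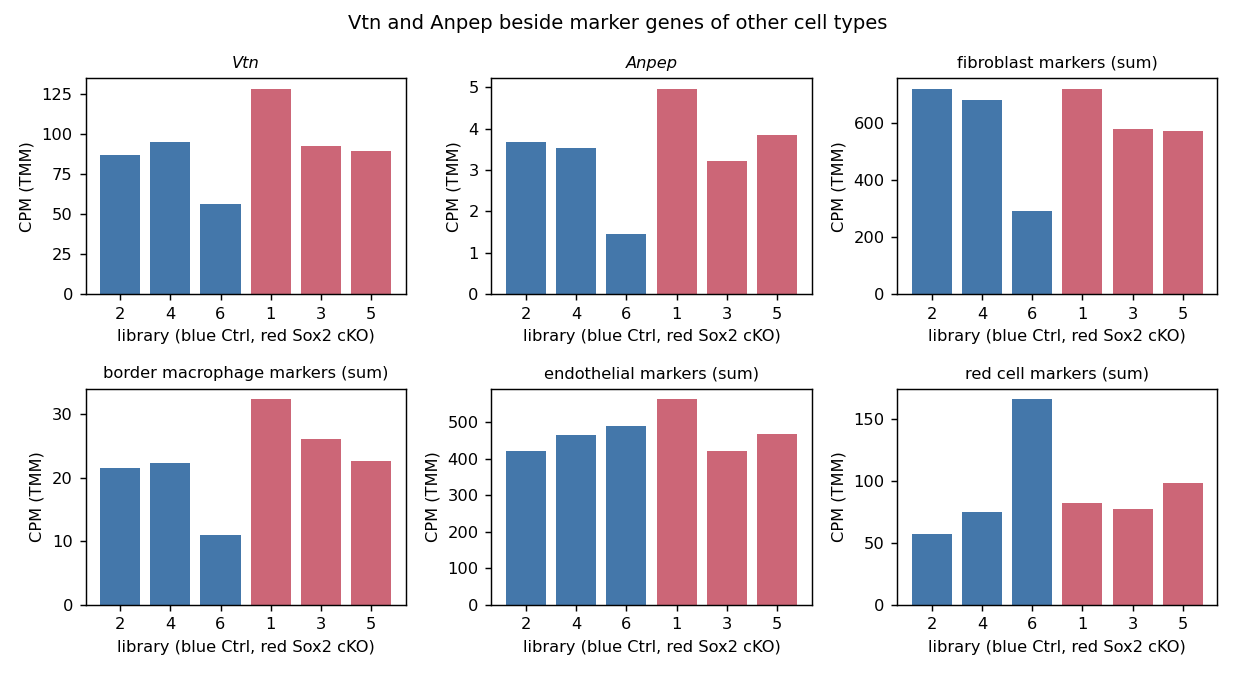
Bars show the CPM of Vtn and Anpep and the summed CPM of marker genes of 4 other cell types in each library, with axes from 0, Ctrl in blue and Sox2 cKO in red. Ctrl library 6 is the lowest for Vtn (56.1 CPM), Anpep (1.45 CPM), fibroblast markers (292 CPM) and border macrophage markers (10.9 CPM), and the highest for red cell markers (166 CPM).

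The genes most like each member were sought by Pearson's r of log2 CPM over the 6 libraries, among 13323 genes with a mean count of at least 50. The 6 points share library depth and composition, so these are descriptions only. For Anpep they were Moxd1 (r = 0.997), Ctsk (0.996) and Stat6 (0.993). Glb1l (0.989) was the first for Pdgfrb, Snx17 (0.999) was the first for Rgs5, Trp53i13 (0.999) for Vtn and Cyp4f13 (0.992) for Abcc9. Rita1 (0.992) was the first for Acta2, Psmb6 (0.996) for Tagln and Rspo2 (0.989) for Myh11. No member was among the 3 genes most like another member.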

How the data were processed

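The 6 libraries, 3 of each group, were single-end reads of poly(A) RNA from whole cord. Per the labels, the authors aligned reads to mm10 with STAR (version 2.5) and made gene counts with HTSeq (version 0.6.1). They deposited these counts without normalization, and the setting for strand is not given in the sources used here. A second table deposited by the authors holds FPKM values. Dividing it into the counts gave gene lengths, which came out whole for all 24442 genes with a count (within 0.05 bases). No other per-sample columns (0) were present. Columns carry numbers and no sample names, and were put in groups by the numbers of the mice. Separate mice gave the libraries, which held 21507911 to 28392184 counts.

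Members were found by Ensembl identifier through GENCODE M21 (GRCm38, the build of mm10), where 34490 of 35275 identifiers matched. Promoters came from RefSeq (GRCm38.p6). Members and gene lists were chosen with earlier results of these data known. The genes named are the members, Sox2, listed genes that passed the test or belong to the family of a member, and the 3 genes most like each member. The genes whose exons overlap a member and the ratios between genes, were chosen after values were seen.

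The test was that of edgeR 4.0.16 in R 4.3.3 (filterByExpr, TMM, quasi-likelihood test without covariates, Benjamini-Hochberg adjustment at 0.05), over all genes. Standard errors and intervals follow from each fold change and its F statistic. The fits were tested on simulated data. Alternatives were DESeq2 1.42.0, upper quartile scaling, no count filter, a minimum of 10 counts in all libraries, limma 3.58.1 on log2 FPKM with pseudocounts of 1 and 0.1 (mean FPKM of at least 0.5), a lowess length correction of each library (span 0.3), and fits without 1 library each. The length correction without 1 library was added after the data were seen.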

Additional observations from a re-analysis of the deposited data

How the results depend on the processing

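No paired analysis was possible because the columns of the tables carry none of the replicate numbers of the labels. Members called were 0 of 8 in edgeR, DESeq2, both other count filters, the length correction and every fit without 1 library (0 to 0), 1 with upper quartile normalization and 2 with limma on log2 FPKM, for both pseudocounts. Acta2 passed with limma at 0.38 (pseudocount 1) and 0.50 (pseudocount 0.1), and Tagln at 0.44 and 0.51, and with upper quartile normalization at 0.46. Over all genes, the limma and upper quartile fits called more genes higher than lower in Sox2 cKO. Myh11 changed sign to 0.0029 and 0.011 with limma and to 0.15 with the length correction. Without 1 library each, log2 fold changes ranged from -0.30 to 0.057 for Myh11 (-0.026 to 0.30 with the length correction), from -0.048 to 0.11 for Abcc9 (0.24 to 0.43), from 0.18 to 0.53 for Vtn (-0.016 to 0.35) and from -0.37 to -0.15 for Pdgfrb (-0.22 to 0.0055). Rgs5, Anpep, Acta2 and Tagln kept a positive sign in every fit. Over all genes, 2109 were called with the length correction, and 8 to 6119 without 1 library each (10 to 4465 with the correction as well). Other pericyte genes called were 0 to 6 (0 to 6 with the correction), and other smooth muscle genes 0 to 9 (0 to 5), with 4 under the correction alone. The cause was not tested. No group had more than 3 libraries, which limits the precision of every value, and Anpep rests on 30 to 113 counts a library.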
